A study of Homo sapiens with 9 samples.

Results

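Long intergenic noncoding RNA genes, whose symbols begin with LINC, were examined in the human prostate cancer line 22Rv1 after knockdown of SSX2. Of 538 LINC genes that the array measured under a symbol of their own, 126 reached a mean log2 intensity of 6 in at least 1 of the 3 groups and are called members here, each read from its brightest transcript. The members were chosen by these measured levels, so the levels are a description and support nothing. The KD line carried an shRNA plasmid against SSX2, the SCR line carried a scramble shRNA, both delivered with lipofectamine and kept in 1 mg/ml neomycin, and the WT cells were not transfected. SSX2 encodes a cancer/testis antigen that is expressed in this line. Each group had 3 Affymetrix Human Transcriptome Array 2.0 chips, labelled as technical replicates, so every p below measures the spread between technical arrays of 1 line and not between separately derived lines. The sources used here do not say whether the KD and SCR lines were pools or clones.

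LINC genes lie between protein-coding genes and make transcripts that are not translated into a known protein. Some of these RNAs act where they are made, on chromatin or on the transcription of nearby genes, while others work in the cytoplasm by binding proteins or microRNAs. Many are expressed in few tissues, and in prostate and other carcinomas several have been tied to growth, migration or hormone response.

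The 2 transcripts shared by SSX2 and its near copy SSX2B averaged 5.13 and 5.05 in KD, against 11.94 and 11.71 in SCR and 11.92 and 11.67 in WT. RNA integrity numbers averaged 2.5 in the labels, which stands for degraded RNA. Array medians lay between 5.41 and 5.50, while 23 background probe sets without a human target had array medians of 3.60 to 3.81. These sets spread widely, with 9-array means from 1.93 to 12.09 and 8 of the 23 at 6 or more, so a mean of 6 does not by itself show that a transcript was detected. Epithelial markers were present in every group, and KRT8, a keratin of luminal cells, averaged 11.17 in KD, 11.09 in SCR and 11.27 in WT. Of 9 measured markers of luminal prostate cells, 6 fell in KD against SCR (mean level per array 7.81 to 7.86 in KD, 9.43 to 9.46 in SCR and 9.24 to 9.28 in WT), among them HOXB13 and FOXA1. Of 16 markers of prostate lines that lack the androgen receptor, 14 were higher in KD (9.11 to 9.16, against 6.10 to 6.13 in SCR and 6.06 to 6.14 in WT). Of the fibroblast, leukocyte and endothelial markers, 7, 7 and 6 were measured, and 1 fibroblast and 1 leukocyte marker were lower in KD. The mean over each of these lists was no more than 5.19 in any array. Single markers stood higher, such as COL1A1 at 7.18, CLDN5 at 7.10 and CORO1A at 6.79 in SCR. The part of these shifts in the values of the LINC genes was not tested, and in bulk RNA fewer cells that express a gene and less RNA per cell cannot be told apart.

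The start regions of members at both ends of the knockdown comparison are shown so that they can be set beside their values. Each is the RefSeq window from 250 bases before to 50 bases after the gene's start in GRCh38.p14, written 5′ to 3′ on the gene's strand, with the letters of any motif found in capitals. Motifs were searched on both strands, among them TGANTCA, the letters of the AP-1 factors. Others were CACCTG, an E-box that ZEB1 binds, and the letters AGAACA, found in androgen response elements. No printed match overlaps another. The 3 members shown for higher signal in KD are LINC00152, which RefSeq now names CYTOR, at chr2:87455177-87455476 on the plus strand, LINC00857 at chr10:80207460-80207759 on the plus strand and LINC00997 at chr7:32758036-32758335 on the plus strand:
LINC00152 (CYTOR): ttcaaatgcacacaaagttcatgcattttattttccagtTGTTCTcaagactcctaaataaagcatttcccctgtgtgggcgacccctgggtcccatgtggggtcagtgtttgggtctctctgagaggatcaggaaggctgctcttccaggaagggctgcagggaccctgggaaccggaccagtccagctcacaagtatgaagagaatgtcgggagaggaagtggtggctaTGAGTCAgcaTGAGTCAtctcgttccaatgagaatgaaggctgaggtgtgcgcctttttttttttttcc
LINC00857: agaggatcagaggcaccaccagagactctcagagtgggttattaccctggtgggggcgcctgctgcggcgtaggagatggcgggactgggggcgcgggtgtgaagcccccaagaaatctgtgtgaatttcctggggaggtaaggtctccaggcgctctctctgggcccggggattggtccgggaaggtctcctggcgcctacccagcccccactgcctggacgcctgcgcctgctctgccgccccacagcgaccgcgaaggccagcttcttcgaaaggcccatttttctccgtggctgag
LINC00997: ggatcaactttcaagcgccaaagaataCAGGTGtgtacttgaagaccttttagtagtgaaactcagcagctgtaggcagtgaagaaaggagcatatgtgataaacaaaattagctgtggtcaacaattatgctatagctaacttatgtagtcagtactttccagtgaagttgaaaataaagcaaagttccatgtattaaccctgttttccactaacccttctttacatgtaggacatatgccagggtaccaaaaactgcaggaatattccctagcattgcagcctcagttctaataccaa

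The 3 members shown for lower signal in KD are LINC02985 at chr12:122063040-122063339 on the plus strand, LINC00938 at chr12:45727872-45728171 on the minus strand and LINC01234 at chr12:113773634-113773933 on the minus strand:
LINC02985: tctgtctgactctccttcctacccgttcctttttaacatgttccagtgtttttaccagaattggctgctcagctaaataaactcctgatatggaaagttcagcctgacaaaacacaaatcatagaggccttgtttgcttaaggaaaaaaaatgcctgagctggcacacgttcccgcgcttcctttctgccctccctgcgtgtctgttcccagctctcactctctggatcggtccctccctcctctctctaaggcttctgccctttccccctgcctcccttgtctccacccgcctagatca
LINC00938: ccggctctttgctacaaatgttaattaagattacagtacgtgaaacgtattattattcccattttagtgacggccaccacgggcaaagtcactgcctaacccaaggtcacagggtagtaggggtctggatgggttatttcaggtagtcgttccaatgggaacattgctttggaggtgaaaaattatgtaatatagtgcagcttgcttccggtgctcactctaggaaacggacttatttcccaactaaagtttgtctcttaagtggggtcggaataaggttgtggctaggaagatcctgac
LINC01234: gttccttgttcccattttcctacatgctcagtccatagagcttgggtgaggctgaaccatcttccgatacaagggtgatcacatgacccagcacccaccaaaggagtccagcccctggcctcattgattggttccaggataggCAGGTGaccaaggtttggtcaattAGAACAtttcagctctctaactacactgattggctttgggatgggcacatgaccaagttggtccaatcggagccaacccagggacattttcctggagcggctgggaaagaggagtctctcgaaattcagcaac

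Among the printed windows, that of CYTOR held the AP-1 letters at positions -19 and -9 from the start, and the AGAACA letters at -211. LINC00997 held the E-box letters at -223. LINC01234 held the E-box letters at -107 and the AGAACA letters at -83, while the windows of LINC00857, LINC02985 and LINC00938 held none of the 8 motifs searched. A match of letters is a description and not a binding site.

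Windows were listed for 96 members. AP-1 letters stood in 9 of them (9.38%), beside 7.76% of the 27305 RefSeq windows of this length, and E-box letters in 24 (25%, beside 20.6%). TATAAA, the TATA box, stood in 5 (5.21%, beside 12%), and AGAACA in 12 (12.5%, beside 14.9%). The TEAD letters GGAATG stood in 11 (11.5%, beside 14%). The CRE letters TGACGTCA stood in 3 (3.12%, beside 1.98%). The FOX letters TGTTTAC stood in 2 (2.08%, beside 3.41%), and the GRHL letters AACCGGTT in 0, beside 0.117%. Members' windows were close to the others in base composition, with a median of 59.5% G and C against 58.3%. The printed windows ranged from LINC00997 at 39% to LINC00857 at 64.7%.

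Most members gave a modest signal. Their means over the 9 arrays ran from 4.86 to 10.55 with a median of 6.47, and 77 members lay between 6 and 7, 17 between 7 and 8, 6 between 8 and 9, and 9 above 9. The other 17 had a mean under 6 and were members only because 1 or 2 groups reached the level. In all, 89 members reached 6 in 3 groups, 19 in 2 groups and 18 in 1 group. The arrays of a group were close, with a median SD of 0.07 over 378 member and group combinations, of which 8 were above 0.2, the highest being 0.43 for LINC02035 in KD. Just inside the level stood LINC00905 at a highest group mean of 6.0019, LINC02370 at 6.0022 and LINC00207 at 6.0028. Just outside stood LINC00239 at 5.9897, LINC00920 at 5.987 and LINC00894 at 5.9861, of which LINC00920 had group means of 5.99 (KD), 4.81 (SCR) and 4.86 (WT).

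All 126 members were found in RefSeq, 12 of them under another symbol. Of the members, 121 are classed as long noncoding RNA. The exceptions carry LINC symbols on the array but are now listed as the protein-coding genes CLEC20A (LINC00083), SUCLA2 (LINC00444), FAM236A (LINC00684) and C10orf143 (LINC00959), and as the pseudogene FAAHP1 (LINC00505). They were kept, since the symbols of the array chose the members. Their log2 fold changes of KD against SCR, -0.14, 0.25, -0.02, -0.36 and -0.47 in that order, did not pass the test described below.

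Of the 5 members with the highest signal, 4 had KD arrays below all SCR and WT arrays, and none passed the test against SCR. The looser order against SCR alone was common, since KD arrays lay below every SCR array in 45.6% of the transcripts with a 9-array mean of at least 6. The share of transcripts below both controls is not given here. Probe sets differ in affinity, so the order of signals is not an order of RNA amounts. LINC00273 read 10.59, 10.71 and 10.68 in KD, 10.44, 10.54 and 10.60 in SCR, and 10.50, 10.39 and 10.46 in WT. Its KD and SCR arrays overlapped, and the difference was 0.13 (95% interval -0.00 to 0.27).

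LINC01000 read 10.21, 10.16 and 10.22 in KD, 10.73, 10.67 and 10.74 in SCR, and 10.63, 10.76 and 10.68 in WT. Its KD arrays lay below all control arrays, by -0.52 against SCR (SE 0.05, adjusted p = 0.149). LINC01001 read 9.76, 9.73 and 9.76 in KD, 10.19, 10.16 and 10.22 in SCR, and 10.03, 10.14 and 10.03 in WT. The KD arrays were again the lowest, at -0.44 against SCR (SE 0.05, adjusted p = 0.432).

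LINC01002 read 9.79, 9.79 and 9.82 in KD, 9.97, 10.02 and 10.04 in SCR, and 9.87, 9.96 and 9.92 in WT. LINC00999 read 9.49, 9.37 and 9.52 in KD, 9.71, 9.76 and 9.79 in SCR, and 9.70, 9.83 and 9.71 in WT. In both the KD arrays lay below all control arrays, by -0.21 and -0.29 against SCR, and neither passed the test (adjusted p = 1 for each).

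LINC01001 and LINC01002 are near copies. Of the 281 stretches of 20 letters in a window, their start regions, at chr11:131804-132103 and chr19:202160-202459 on the minus strands, shared 171. They are printed because the same AP-1 letters stand in the shared part of both, at -83 in LINC01001 and at -16 in LINC01002:
LINC01001: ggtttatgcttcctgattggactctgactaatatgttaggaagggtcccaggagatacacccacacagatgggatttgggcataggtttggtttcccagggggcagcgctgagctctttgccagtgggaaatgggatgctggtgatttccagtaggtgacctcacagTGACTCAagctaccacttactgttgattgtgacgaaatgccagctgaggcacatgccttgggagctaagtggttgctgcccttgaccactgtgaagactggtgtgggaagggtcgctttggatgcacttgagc
LINC01002: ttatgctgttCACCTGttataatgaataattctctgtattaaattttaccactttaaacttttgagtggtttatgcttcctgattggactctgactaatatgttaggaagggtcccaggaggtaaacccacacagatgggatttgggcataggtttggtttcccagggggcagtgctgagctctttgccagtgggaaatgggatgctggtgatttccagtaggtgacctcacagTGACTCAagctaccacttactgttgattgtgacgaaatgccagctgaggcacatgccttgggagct

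LINC01061 shared 148 of these stretches with LINC01001 and 192 with LINC01002 and also held the AP-1 letters, so 3 of the 9 windows with that motif are copies of each other. LINC01061 read 9.20, 9.15 and 9.22 in KD, 9.35, 9.30 and 9.39 in SCR, and 9.26, 9.42 and 9.44 in WT, with KD the lowest. Over the 9 arrays, which fall into the 3 groups, LINC01001 correlated with LINC01002 at r = 0.95 and with LINC01061 at 0.81. LINC00869 and LINC00875, the latter now named LINC01138, shared 63 stretches and correlated at 0.95. Whether the array's probes tell such copies apart was not tested, so their values may not be separate measurements.

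The comparison of KD with SCR sets the knockdown line beside a line that was also transfected and selected. Each is 1 line, so an effect of the SSX2 shRNA cannot be told apart from any other difference between the lines. A few members stood far higher in KD, led by LINC00707, LINC00857, LINC00648 and CYTOR, while most of the others were slightly lower. A call was a Bonferroni-adjusted limma p under 0.05 over 67528 transcripts. Calls were counted over the 109 members with a 9-array mean of at least 6, and the other 17 are described without a test. Of the 109, the KD signal was higher in 5 (4.59%) and lower in 9 (8.26%), beside 4.08% and 4.68% of all transcripts and 7.69% and 9.67% of transcripts at the same mean level. The lower share was near that of transcripts at the same level, and the higher share rested on only 5 members. Neither is read as a result about the members. With the arrays centred on their medians the split was 5 higher and 5 lower. Leaving out any 1 KD or SCR array left 4 lower, and leaving out WT 1 left 5. Of the calls, LINC00707, LINC00648 and LINC00997 reached 6 in KD alone and LINC02985 and LINC01234 in the controls alone, so these had to differ between groups to some degree and are given below without a p. Among the 91 members with both means at 6 or more, 2 were higher (2.2%) and 7 lower (7.69%), beside 7.36% and 7.87% of transcripts chosen the same way.

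Over all 126 members the median log2 fold change of KD against SCR was -0.13, beside -0.06 for all transcripts and -0.09 for those with a 9-array mean of at least 6. After centring the arrays the members' median was -0.07, and after quantile normalization -0.06. The KD arrays lay above every SCR array in 17 of the 109 members, beside 28% of transcripts at that level, and below every SCR array in 56, beside 45.6%. By size, 7 of the 126 stood at least 1 log2 unit above SCR, 5 stood 0.5 to 1 above and 19 up to 0.5 above. On the other side 74 stood up to 0.5 below, 16 were 0.5 to 1 below and 5 at least 1 below. The median absolute log2 fold change of the members was 0.24, beside 0.15 for all transcripts and 0.26 for those at the level.

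**Figure D1:**
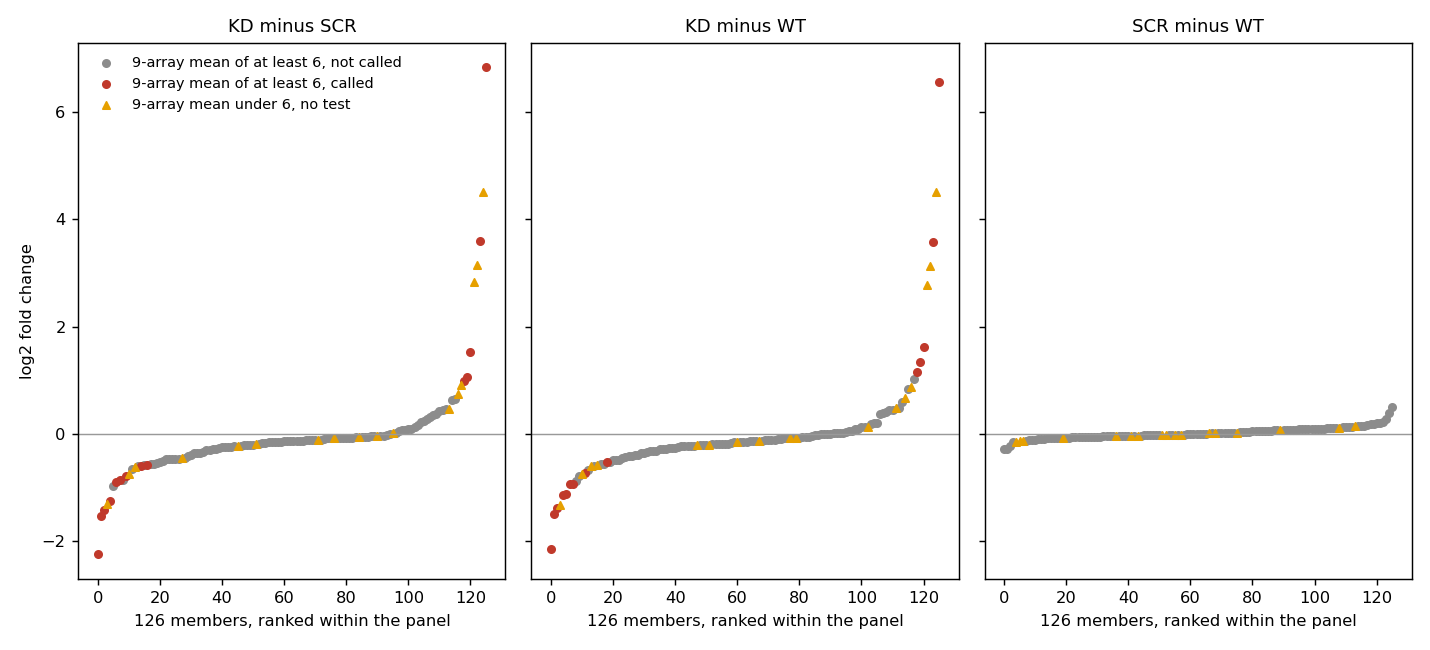
The log2 fold change of each of the 126 members, ranked within each of 3 comparisons, with called members in red, other tested members in grey and the 17 members without a test as triangles. A few members stand 1 to 6.84 above SCR and WT in KD, most lie close to 0, and SCR and WT differ by no more than 0.51 in any member.

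LINC00707 had the highest value of all members in KD and stood near the median of the background sets in both controls. This RNA has been described in several carcinomas as a promoter of growth. It read 11.13, 10.94 and 10.92 in KD, 3.999, 4.17 and 4.30 in SCR, and 4.39, 4.37 and 4.55 in WT. Every KD array was more than 6 log2 units above every control array, with log2 fold changes of 6.84 against SCR (SE 0.09) and 6.56 against WT (SE 0.09), which may understate the change because the controls lay close to the background medians. LINC00857, studied in lung and other tumours, stands on the same chromosome 10 and stood near the same medians in the controls. It read 8.26, 8.11 and 8.14 in KD, 3.51, 3.71 and 3.77 in SCR, and 3.81, 3.49 and 3.65 in WT. The KD arrays stood 4.51 above SCR with no overlap.

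LINC00648 read 8.81, 8.54 and 8.53 in KD, 5.04, 5.02 and 5.03 in SCR, and 5.07, 5.02 and 5.02 in WT. The control arrays lay close together and the KD arrays stood 3.60 above SCR (SE 0.07) and 3.59 above WT. CYTOR, whose name stands for cytoskeleton regulator RNA and which is raised in many carcinomas, read 7.88, 8.20 and 8.09 in KD, 4.91, 4.96 and 4.84 in SCR, and 4.97, 4.89 and 4.94 in WT. It stood 3.15 above SCR and 3.12 above WT with no overlap of arrays. LINC02864 on chromosome 18 read 6.83, 6.72 and 6.65 in KD, 3.87, 3.92 and 3.93 in SCR, and 3.97, 3.87 and 4.01 in WT. Its controls were near the background medians and KD was 2.82 above SCR.

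LINC00997 read 7.59, 7.55 and 7.28 in KD, 6.02, 5.81 and 6.01 in SCR, and 5.95, 5.87 and 5.71 in WT. KD lay 1.52 above SCR (SE 0.10) and 1.63 above WT (SE 0.10). Its call was lost without KD 1. This is the member with the E-box letters near the far end of its printed window. LINC00869 read 7.24, 7.27 and 7.07 in KD, 6.14, 6.15 and 6.08 in SCR, and 5.84, 5.88 and 5.81 in WT. It rose by 1.07 against SCR (SE 0.06, adjusted p = 0.0011) and kept its call without any 1 array. A second transcript of LINC00869, at a 9-array mean of 5.85, stood only 0.23 above SCR.

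LINC00342 read 7.49, 7.68 and 7.76 in KD, 6.70, 6.63 and 6.63 in SCR, and 6.44, 6.59 and 6.41 in WT. It rose by 0.98 against SCR (SE 0.08, adjusted p = 0.0206) and by 1.16 against WT (adjusted p = 0.0047). The call against SCR was lost without KD 2, KD 3, WT 1, WT 3 or any SCR array, at adjusted p up to 0.24. By the pattern of the 3 group means, centred on each gene, the members closest to LINC00707 were LINC00857 (root mean square difference 1.04) and LINC00648 (1.47), so none matched its size.

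LINC02985 had the lowest log2 fold change of the members. It read 5.08, 5.36 and 5.41 in KD, 7.51, 7.54 and 7.55 in SCR, and 7.42, 7.42 and 7.45 in WT. The KD arrays fell below the level of 6 and stood -2.25 against SCR (SE 0.08) and -2.15 against WT. The members closest to it in pattern were LINC01963 (root mean square difference 0.35) and LINC00938 (0.36).

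LINC01963 read 7.30, 7.44 and 7.30 in KD, 8.85, 8.82 and 8.94 in SCR, and 8.83, 8.77 and 8.60 in WT. It fell by 1.53 on the log2 scale against SCR (SE 0.07, adjusted p = 2.2e-04) and by 1.39 against WT (adjusted p = 5.1e-04). LINC00938, whose start is printed above, read 7.34, 7.43 and 7.37 in KD, 8.73, 8.73 and 8.94 in SCR, and 8.87, 8.92 and 8.84 in WT. It fell by 1.42 against SCR (SE 0.06, adjusted p = 1.6e-04) and by 1.50 against WT (adjusted p = 9.7e-05). Both had KD arrays more than 1 log2 unit below every control array.

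LINC00685 lies in the pseudoautosomal region, and the array lists it on X and Y with identical values, which were counted as 1 gene. It read 6.79, 6.98 and 6.88 in KD, 8.10, 8.12 and 8.18 in SCR, and 7.97, 8.16 and 7.90 in WT. It fell by 1.25 against SCR (SE 0.07, adjusted p = 0.00188) and by 1.13 against WT (adjusted p = 0.00476). The calls of LINC01963, LINC00938 and LINC00685 held without any 1 array.

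LINC00664 on chromosome 19 read 4.86, 4.86 and 4.88 in KD, 6.18, 6.12 and 6.23 in SCR, and 6.23, 6.16 and 6.18 in WT. Its KD arrays lay close together, at -1.31 against SCR. LINC01004 read 6.54, 6.71 and 6.72 in KD, 7.70, 7.42 and 7.75 in SCR, and 7.51, 7.76 and 7.32 in WT. Its arrays did not overlap, but its spread within SCR and WT was wide, and a difference of -0.97 against SCR (95% interval -1.24 to -0.70) had an adjusted p of 1. LINC01234, reported as raised in several carcinomas, read 5.84, 5.82 and 5.70 in KD, 6.64, 6.72 and 6.67 in SCR, and 7.05, 6.89 and 6.79 in WT. It stood -0.89 against SCR (SE 0.07) and -1.12 against WT (SE 0.07), and SCR lay -0.23 against WT.

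The remaining 4 called members fell by less. LINC00115 read 6.30, 6.13 and 6.41 in KD, 7.13, 7.15 and 7.16 in SCR, and 7.15, 7.31 and 7.17 in WT. It fell by 0.86 against SCR (adjusted p = 0.0461) and by 0.93 against WT (adjusted p = 0.0242). LINC01881 fell by 0.78 against SCR (adjusted p = 0.0226), from a mean of 8.52 to 7.75. LINC00265 fell by 0.60 (adjusted p = 0.0406) and LINC00674 by 0.58 (adjusted p = 0.0113), from 9.85 and 9.00 in SCR to 9.25 and 8.42 in KD. These calls, and that of LINC01234, were the ones lost when any 1 KD or SCR array was left out.

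**Figure D2:**
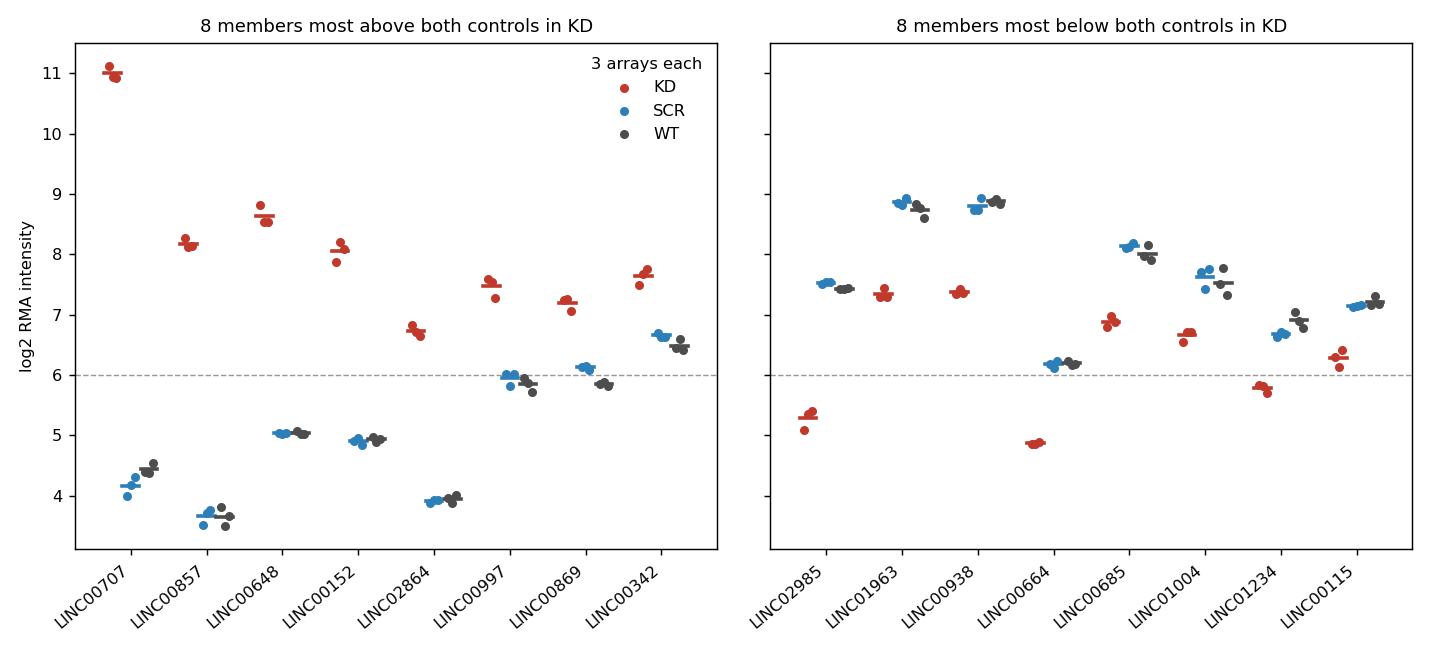
The log2 RMA intensity of the 8 members most above and the 8 most below both controls in KD, with a point for each of 3 KD, 3 SCR and 3 WT arrays, a bar at each group mean and a dashed line at the level of 6. The 16 were taken from members whose KD arrays lie clear of all SCR and WT arrays, so that separation was fixed by the choice. The gap is widest in LINC00707, whose KD arrays read 10.92 to 11.13.

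KD was also compared with WT, which sets the knockdown line beside untransfected cells. This comparison shares the KD arrays with the one above, so the 2 are given side by side and are not separate evidence. Against WT the KD signal was called higher in 5 of the 109 members and lower in 9, beside 4.13% and 4.49% of all transcripts and 7.86% and 9.21% of those at the same mean level. Without KD 1 the lower count was 4, and without WT 1 it was 5. The higher members had log2 fold changes against WT of 6.56 for LINC00707, 3.59 for LINC00648, 1.63 for LINC00997, 1.34 for LINC00869 and 1.16 for LINC00342. The first 4 of these had WT means under 6, and LINC02985 and LINC01234 had KD means under 6. Their place among the 109 rests on the groups where they were higher. Among the 90 members with KD and WT means of at least 6, 1 was called higher (1.11%) and 7 lower (7.78%). The share of transcripts chosen that way is not given for this comparison.

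LINC00294 and LINC00265 were on different sides of the threshold in the 2 comparisons. LINC00294 read 7.35, 7.38 and 7.39 in KD, 8.04, 8.06 and 7.96 in SCR, and 8.40, 8.20 and 8.31 in WT. Its KD arrays lay below all controls, by -0.65 against SCR (adjusted p = 0.0862) and -0.93 against WT (adjusted p = 0.00347), with SCR -0.28 against WT. LINC00265 read 9.30, 9.20 and 9.24 in KD, 9.86, 9.82 and 9.86 in SCR, and 9.76, 9.87 and 9.77 in WT, and its difference from WT was -0.56 (adjusted p = 0.0781).

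SCR was compared with WT, which sets a transfected and selected line without the SSX2 shRNA beside untransfected cells. Here too, an effect of the treatment cannot be told apart from any other difference between the lines. No member was called by limma in either direction, beside 0.141% higher and 0.074% lower of all transcripts and 0.305% and 0.116% of those at the same level. At an unadjusted p under 0.05, 12 of the 109 were higher and 3 lower in SCR, and with Benjamini-Hochberg adjustment 1 was higher. The shares of all transcripts at these looser thresholds are not given here, so these counts are no result about the members. The median log2 fold change over 126 members was -0.00. SCR arrays lay above every WT array in 19 of the 109, beside 15.9% of transcripts at the level, and below in 5, beside 12.6%.

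LINC00641, the member called higher under Benjamini-Hochberg adjustment, read 7.73, 7.89 and 7.94 in KD, 7.52, 7.48 and 7.60 in SCR, and 7.20, 7.09 and 6.79 in WT. SCR was 0.51 above WT (95% interval 0.28 to 0.73), and KD was 0.32 above SCR, so the 3 groups stood apart in the order KD, SCR, WT. LINC02035 read 7.07, 6.49 and 6.22 in KD, 6.01, 5.84 and 6.03 in SCR, and 5.58, 5.71 and 5.42 in WT. SCR was 0.39 above WT (95% interval -0.02 to 0.79), and its KD arrays spread the most of any member and group. The third of the highest differences was that of LINC00869 at 0.28, and the lowest were LINC00294 at -0.28, LINC00707 at -0.28 and LINC01234 at -0.23.

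Members with a described role in cancer did not share a direction. The list of LINC genes tied to growth or spread of carcinomas held 18 genes, of which 15 were measured and 6 were members. LINC00707 and CYTOR, given above, were members because their KD signal was high and are not counted as calls of the list. Of its other measured genes 1 was called in KD against SCR, beside 7.78% of all genes with 1 symbol called higher. This was LINC00312, no member, with means of 4.46 (KD), 3.40 (SCR) and 3.57 (WT), the controls below the background medians. It was higher than SCR (adjusted p = 0.0331) but did not pass against WT (adjusted p = 0.149).

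LINC00941 read 6.22, 6.25 and 6.41 in KD, 5.26, 5.35 and 5.54 in SCR, and 5.26, 5.37 and 5.62 in WT. KD was 0.91 above SCR with no overlap of arrays. LINC00467, which the neuroblastoma oncoprotein N-Myc represses, read 7.21, 7.15 and 7.20 in KD, 7.60, 7.65 and 7.73 in SCR, and 7.75, 7.65 and 7.70 in WT. KD was lower than every control array, by -0.47 against SCR, short of the threshold (adjusted p = 0.48).

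LINC00662 read 7.59, 7.48 and 7.19 in KD, 7.09, 7.10 and 7.01 in SCR, and 7.05, 7.03 and 6.85 in WT. The KD arrays were the 3 highest, and the difference from SCR of 0.35 (95% interval 0.13 to 0.58) did not pass. LINC00665 read 8.16, 8.14 and 8.21 in KD, 8.37, 8.34 and 8.45 in SCR, and 8.24, 8.29 and 8.25 in WT. KD was -0.22 against SCR and -0.09 against WT, neither past the threshold.

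LINC00963, found in prostate cancer cells that no longer need androgen, read 9.31, 9.39 and 9.32 in KD, 9.47, 9.52 and 9.51 in SCR, and 9.45, 9.62 and 9.53 in WT. The difference from SCR was -0.16 (95% interval -0.28 to -0.04, adjusted p = 1), and a dimmer transcript of this gene stood 0.17 above SCR, so the direction depends on the transcript. LINC00844, a prostate gene that responds to androgen, was below the background medians in every group, with means of 2.57 (KD), 2.61 (SCR) and 2.52 (WT). LINC01138, also listed as linked to the prostate, was measured under its older symbol LINC00875, with means of 7.22 (KD), 6.94 (SCR) and 6.83 (WT). KD was 0.29 above SCR (95% interval 0.14 to 0.43) and was not called. Of the genes listed for a microprotein found later, 2 were measured and none was a member.

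Transcripts of the same gene disagreed in other members too. LINC00667 had a brighter transcript 0.37 above SCR, not called, and a dimmer 0.83 above SCR (adjusted p = 0.00961). LINC02210 had its brightest transcript at -0.21 and 2 dimmer ones at 0.78 and 0.59 against SCR, none of them called. In all, 8 members had more than 1 transcript.

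LINC genes were set beside other genes with a 9-array mean of at least 6. Of 235 antisense genes at that level, 8 were called higher (3.4%) and 14 lower (5.96%) in KD against SCR, with a median log2 fold change of -0.12, beside -0.14 for the 109 LINC genes. Of 13658 other genes with 1 symbol, 1421 were higher (10.4%) and 1458 lower (10.7%), with a median of -0.06. The antisense genes were at the same signal as the LINC genes (median 6.65 and 6.67), and the other genes were brighter (7.66). No test of these differences was made.

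**Figure D3:**
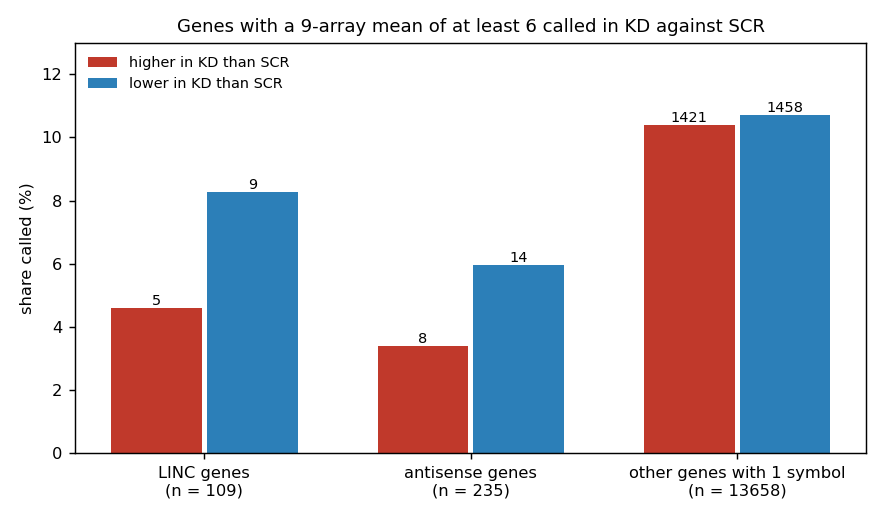
The share of genes called in KD against SCR among 109 LINC genes, 235 antisense genes and 13658 other genes with 1 symbol, all with a 9-array mean of at least 6, with bars for higher and lower and the number of genes on each bar. LINC genes were called in 4.59% and 8.26%, antisense genes in 3.4% and 5.96%, and the other genes in 10.4% and 10.7%.

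The nearest measured protein-coding gene on each side was read for the 16 members plotted by array. The neighbours were not used to choose the members. Of 16 neighbours of the 8 highest members, 4 were called higher and 3 lower in KD against SCR, and of 16 neighbours of the 8 lowest, 6 were lower and the others were not called. This stands beside 7.78% higher and 7.6% lower among all genes with 1 symbol, and beside 9.28% and 13.9% of the 237 neighbours of all members. Over the 117 members with a neighbour at a 9-array mean of 6 or more, the member's log2 fold change and the mean of its neighbours had a Spearman rho of 0.17 and a Pearson r of 0.20, with the same sign in 77. These are descriptions across genes that share arrays.

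Both neighbours of LINC00707 were higher in KD. PRKCQ, a protein kinase C of T-cell receptor signalling, rose by 2.10 (adjusted p = 3.8e-06), and SFMBT2, a Polycomb group protein, by 1.04 (adjusted p = 1.7e-04). ANXA11, an annexin beside LINC00857, rose by 1.09 (adjusted p = 5.1e-04), while MAT1A on its other side stood at -0.60 (adjusted p = 0.209).

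The neighbours of LINC00648 moved apart. RPS29, a ribosomal protein gene, rose by 0.77 (adjusted p = 0.00167), and MDGA2, an adhesion molecule of neurons, fell by 1.19 (adjusted p = 9.4e-05). Beside CYTOR, KRCC1 fell by 1.15 (adjusted p = 0.00459) and CD8B stood at 0.02. Beside LINC02864, NETO1 fell by 1.04 (adjusted p = 0.00132) and FBXO15 stood at -0.24. MDGA2 and NETO1 had 9-array means of 5.11 and 5.05, also under the level of 6.

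On the lower side, LINC02985 lay between BCL7A, a subunit of a chromatin remodelling complex, and MLXIP, a glucose-responsive transcription factor. BCL7A fell by 0.97 (adjusted p = 1.7e-04) and MLXIP by 0.79 (adjusted p = 0.0105). ARID2, another chromatin remodelling subunit, lies beside LINC00938 and fell by 0.57 (adjusted p = 0.0198). The zinc finger genes ZNF493 and ZNF429 around LINC00664 fell by 1.13 (adjusted p = 0.00713) and 0.98 (adjusted p = 0.00174). KMT2E beside LINC01004 fell by 0.87 (adjusted p = 0.00251).

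Other members changed beside neighbours that were not called. LINC01963 stood between MARCHF4 at 0.25 and XRCC5, a DNA repair gene, at -0.01. LINC01234 stood between LHX5 at -0.13 and RBM19 at 0.17, and LINC00997 between AVL9 at -0.36 and KBTBD2 at -0.27. The neighbours of LINC00869, LINC00342, LINC00685 and LINC00115 were not called either.

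**Figure D4:**
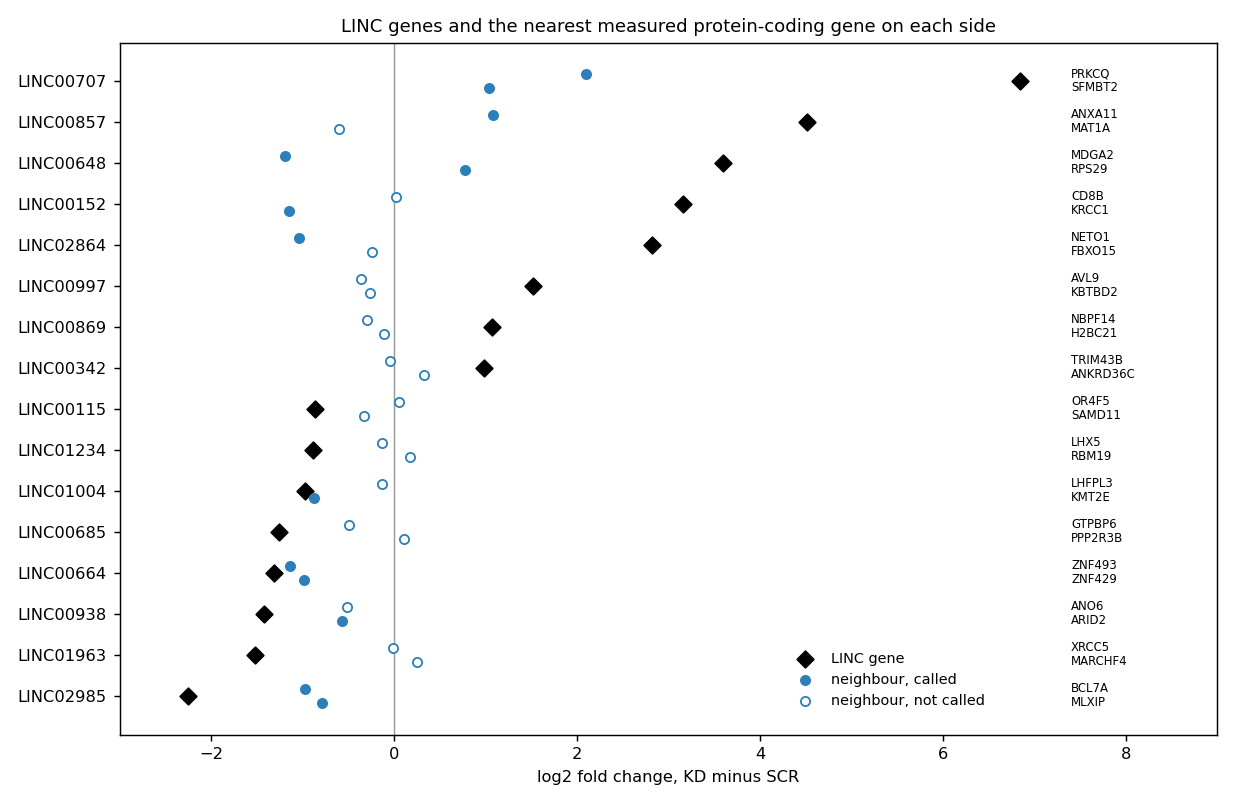
The log2 fold change of KD against SCR for 16 LINC genes (diamonds) and for the nearest measured protein-coding gene on each side (circles, filled where called, with names at the right). Both neighbours of LINC00707, LINC00664 and LINC02985 are called in the direction of the LINC gene, and those of LINC01963 lie near 0.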

How the data were processed

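RNA of 9 arrays (3 KD, 3 SCR, 3 WT) was read on Affymetrix Human Transcriptome Array 2.0 chips. The values that the authors deposited are log2 intensities after RMA. The submitters' processing notes name Affymetrix Expression Console and Transcriptome Analysis Console 3.0, and no source used here gives the build of the array annotation. Of 70523 probe sets, 67528 transcripts were tested and 2995 that are no transcripts were left out. The array annotation gave 23781 transcripts 1 symbol, 1543 several and 42204 none.

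Group means over all 9 arrays were fitted in R 4.3.3 with limma 3.58.1 and eBayes (6 residual and 3.34 prior degrees of freedom) and Bonferroni adjustment, which the study's methods name, and no fold minimum. The fit was tested on simulated data. The number of arrays limits the precision.

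Members had a symbol of LINC and digits and a group mean of at least 6. The members and lists were chosen with earlier results of these data known. Values by array are given for listed members, the 8 highest and 8 lowest in KD against SCR with no overlap with either control, the 3 highest and lowest in SCR against WT with no overlap, and the 5 brightest. LINC02035, LINC00641 and LINC00294 entered by the third of these. LINC00265 was added after its values were seen, since it was called. LINC01061 was added outside these rules, beside LINC01001 and LINC01002, with which it shares stretches of its start region. Names, gene order and start windows came from RefSeq GRCh38.p14, without 583 entries on other scaffolds. Python 3.11.15 and matplotlib 3.10.9 made tables and plots. Alternatives were Benjamini-Hochberg adjustment, a 5-fold minimum, the methods' one-way ANOVA, centring, quantile normalization, filters, other levels, the compared arrays alone, the replicate block, averaging a gene's transcripts and leaving out each array.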

Additional observations from a re-analysis of the deposited data

How the results depend on the processing

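The shares of all transcripts called under the alternative settings are not given here, so the counts below show only how the calls move. They are no result about LINC genes beside others. At the level of 6, KD arrays lay below every SCR array in 45.6% of all transcripts. The KD against SCR counts of 5 higher and 9 lower members became 16 and 47 with Benjamini-Hochberg adjustment, 2 and 0 with a 5-fold minimum, 1 and 0 with the methods' one-way ANOVA, and 3 and 4 with the compared arrays alone. The 5-fold minimum left LINC00707 and LINC00648, and the ANOVA left LINC00707. Both reached 6 in KD alone, so the counts under these 2 settings rest on members that had to differ between groups to some degree. With a 9-array mean of at least 7 the higher count was 0. The lower count was 5 with centred arrays and 16 when only transcripts with a 9-array mean of at least 6 were fitted, which adjusts over fewer transcripts. The KD against WT counts of 5 and 9 became 15 and 49, 2 and 0, and 1 and 0 under the adjustment, the minimum and the ANOVA, the higher count was 0 at a mean of 7, and the lower count was 14 with the filter and 3 with the compared arrays alone. In SCR against WT, 1 member was higher with Benjamini-Hochberg adjustment. Leaving out each array in turn gave 4 to 5 higher and 4 to 7 lower in either KD comparison and 0 to 0 in SCR against WT. The difference of LINC00963 turned to 0.0072 with the mean of its transcripts. Deviations of arrays of the same number correlated weakly (-0.02 to 0.16, 2 of 9 over 0.1), beside -0.21 to 0.09 for arrays of different numbers. Deviations from means of 3 arrays cannot settle whether the numbers pair arrays, and the main fit used no pairing. With the replicate block, 4 members were higher and 4 lower in KD against SCR, and 4 and 5 in KD against WT. Of the values of single members under the alternatives, 535 kept their direction and side of the threshold, 92 lost a call and 13 gained one. The causes were not tested, apart from the number of transcripts or arrays that a setting leaves. Changes of members near the background medians in the controls may be understated.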
